A study of Homo sapiens with 6 samples.

Results

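Transcripts of 10 genes of the HSP70 chaperone family were described here: HSPA8, HSPA1A, HSPA1B, HSPA2, HSPA6, HSPH1, HSPA4, HSPA4L, HSPA14 and HSPA9. They were picked by gene symbol from a table of 59248 symbols, and all 10 were found there. RNA was sequenced from 3 libraries of Jurkat cells overexpressing PDCD1-28 and from 3 libraries of Jurkat cells with the vector. Jurkat is an established human T-cell leukemia line, and PDCD1-28 stands here for a splicing isoform of the PD-1 receptor gene that keeps 28 base pairs from the start of intron 2. The growth protocol of both groups names the cells Jurkat KO-1, and what KO-1 stands for, whether a line was 1 clone, and the promoter behind the isoform are not given in the sources used here. The libraries of a group carry numbers, but nothing says that they came from separate cultures, so their spread may be technical.

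The 10 genes were proposed with this same comparison already known. Their differences between overexpression and vector are therefore given as a description, with fitted values and errors and with no p-value. CPM is the usual unit in which estimated counts are scaled to one common library total, here after TMM scaling, a correction for differences in RNA composition. A log2 fold change is overexpression over vector from edgeR, with its standard error (SE).

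HSP70 proteins bind short hydrophobic stretches of unfolded proteins and let them go again in a cycle driven by ATP. J-domain cochaperones deliver the client and trigger ATP hydrolysis, and nucleotide exchange factors release ADP so that the client leaves. HSPA8 is the constitutive member of the cytosol, HSPA1A, HSPA1B and HSPA6 are the heat-inducible ones, and HSPA2 is best known from the testis. HSPH1, HSPA4 and HSPA4L form the HSP110 group, relatives that serve HSP70 as nucleotide exchange factors. HSPA14 works at the ribosome, and HSPA9 is the HSP70 of the mitochondrial matrix, where it pulls in imported proteins. Under heat and other protein-damaging stress, heat shock factor 1 raises several of these genes through heat shock elements, which are inverted repeats of GAA and TTC units.

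The libraries held 61486369 to 72314037 estimated counts in overexpression and 59911578 to 84220970 in vector. PDCD1 had 945, 1059 and 807 estimated counts in overexpression against 14, 18 and 15 in vector, the direction the labels give, although the table does not separate isoforms. Vector replicate 2 stood apart from the other vector libraries on the second principal component, which held 10.7% of the variance, and the log2 fold changes of HSPA6 and HSPA4L, which turn on it, are also given without it. All 10 T-cell markers checked were expressed, with a summed level of 2750 to 2802 CPM in overexpression and 2967 to 3174 CPM in vector. Of these markers 6 were lower and 2 higher past the edgeR threshold, beside 23.4% lower and 22.6% higher among all genes tested. The 2 higher were TRBC1 (log2 fold change 0.42) and TAL1 (0.29), while CD3D (-0.10) and CD3E (-0.07) were not called. CD7 had the lowest log2 fold change of the 10 markers (-2.09). Its levels were 16.4, 17.7 and 18.4 CPM in overexpression against 70.4, 84.03 and 68.8 CPM in vector. PTPRC, among the lower markers, had 688, 382 and 713 CPM in vector against 376, 377 and 363 CPM in overexpression. Its value in vector replicate 2 thus lay near those of overexpression. The markers named here were picked after their values were seen. Markers of B cells (28.8 to 37.03 CPM in overexpression, 41.7 to 60.1 CPM in vector) and of myeloid cells (35.8 to 38.96 CPM in overexpression, 50.2 to 56.7 CPM in vector) were summed from low levels carried mainly by CD79A and AIF1. Erythroid markers summed to 0.255 to 0.469 CPM in overexpression and 1.66 to 36.3 CPM in vector, and natural killer, epithelial and fibroblast markers to at most 5.16 CPM in any library. The low erythroid sum in vector was that of replicate 2, where HBA1 had 0.917 CPM, against 20.3 and 17.2 CPM in vector replicates 1 and 3. NCR1, EPCAM, COL1A2 and DCN were at 0 in all 6 libraries. Whether the differences in these lists had a part in the HSP70 values was not tested.

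The upstream sequences of the family differ in matches to the heat shock element, and the stretches that hold them are printed to let the reader see which windows carry one. RefSeq windows (GRCh38.p14) were found for 9 of the 10 genes, all but HSPA14, and the 250 bases before each annotated start were searched on both strands for GAANNTTC or TTCNNGAA, the form with 2 units. At least 1 match lay in 5 of the 11 windows of these genes, 1 each for HSPA8, HSPA6, HSPA1A, HSPA1B and HSPA4L, while 11.6% of all 35116 windows of this length held a match. A longer form, in which 1 more inverted unit follows after any 2 bases so that matches of the shorter form overlap, lay in 2 of the 11 windows, those of HSPA8 and HSPA6, against 0.441% of all windows. Each line below gives 30 bases from 5′ to 3′ on the strand of the gene, with the matched letters in capitals.
HSPA8, near element, chr11:123062171-123062200, minus strand: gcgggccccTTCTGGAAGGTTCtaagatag
HSPA8, far element, chr11:123062346-123062375, minus strand: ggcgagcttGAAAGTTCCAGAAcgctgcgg
HSPA6, chr1:161524457-161524486, plus strand: gcggaaaggTTCGCGAAAGTTCgcggcggc
HSPA1A, chr6:31815426-31815455, plus strand: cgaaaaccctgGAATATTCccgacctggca
HSPA1B, chr6:31827622-31827651, plus strand: cgaaacccctgGAATATTCccgacctggca
HSPA4L, chr4:127782141-127782170, plus strand: tttccagatctTTCTCGAAcccgcagcttc

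The near HSPA8 element ran from 55 to 43 bases before the annotated start and the far one from 230 to 218. The longer HSPA6 element ran from 74 to 62 bases before the start, and a further match of the shorter form, GAACCTTC, from 180 to 173. The element of HSPA1A lay 106 to 99 bases and that of HSPA1B 105 to 98 bases before the start, in windows that shared 235 of 250 bases. HSPA4L has 3 annotated starts, and the match lay before 1 of them. The stretches of HSPA8 and HSPA4L lie inside the gene bounds of GENCODE 29, whose outermost start is farther upstream than the RefSeq start used here. No match was found before HSPH1, HSPA4, HSPA9 or HSPA2. The whole windows of HSPA9 and HSPA2, and parts of those of HSPA4 and HSPA1A, also lie inside the GENCODE 29 gene bounds. Elements beyond the 250 bases or with other letters were not searched for, so a window without a match does not show a gene without an element. The window before HSPH1, the gene with the lowest fold change below, is printed whole to show a stretch without the letters (chr13:31162389-31162638, minus strand).
HSPH1: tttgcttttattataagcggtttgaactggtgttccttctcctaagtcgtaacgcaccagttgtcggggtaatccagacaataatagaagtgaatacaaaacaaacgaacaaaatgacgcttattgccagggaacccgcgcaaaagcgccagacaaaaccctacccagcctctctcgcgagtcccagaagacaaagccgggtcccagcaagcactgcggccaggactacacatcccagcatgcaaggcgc

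Other promoter letters were shared in part. The CCAAT box (CCAAT on either strand) lay in 5 of the 11 windows, at 2 places each in HSPA8, HSPA1A and HSPA1B, against 32.01% of all windows. The TATA letters TATAAA lay in 3 of the 11 windows, 1 each of HSPA1A, HSPA1B and HSPA4L, against 10.7% of all windows. A GC box (GGGCGG) lay in 9 of the 11 windows, with none in that of HSPH1, against 42.6% of all windows. These matches describe letters and not bound sites, and factor binding was not analysed here.

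Most of the family was lower in overexpression. Of the 10 genes, all of which passed the expression filter, 7 were past the edgeR threshold (Benjamini-Hochberg adjusted p of 0.05 over 21055 genes) in the lower direction, where 23.4% of all genes tested were, and 0 in the higher direction, where 22.6% were (46.1% in either direction). The overexpression libraries lay below every vector library in 8 of the 10 genes, as in 28.6% of all genes tested, and above every vector library in 0 of the 10, as in 30.1% of all genes tested. The groups overlapped in the other two, HSPA4L and HSPA6. HSPA8, HSPH1, HSPA1A and HSPA1B were past the threshold and at least 2-fold lower, as were 6.22% of all genes tested, and HSPA8 and HSPH1 had a log2 fold change of -2 or less, as did 2.76%. Since the genes were proposed from this comparison, nothing is read from these counts. The median log2 fold change was -0.87 over the 10 genes and 0.02 over all genes tested.

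**Figure D1:**
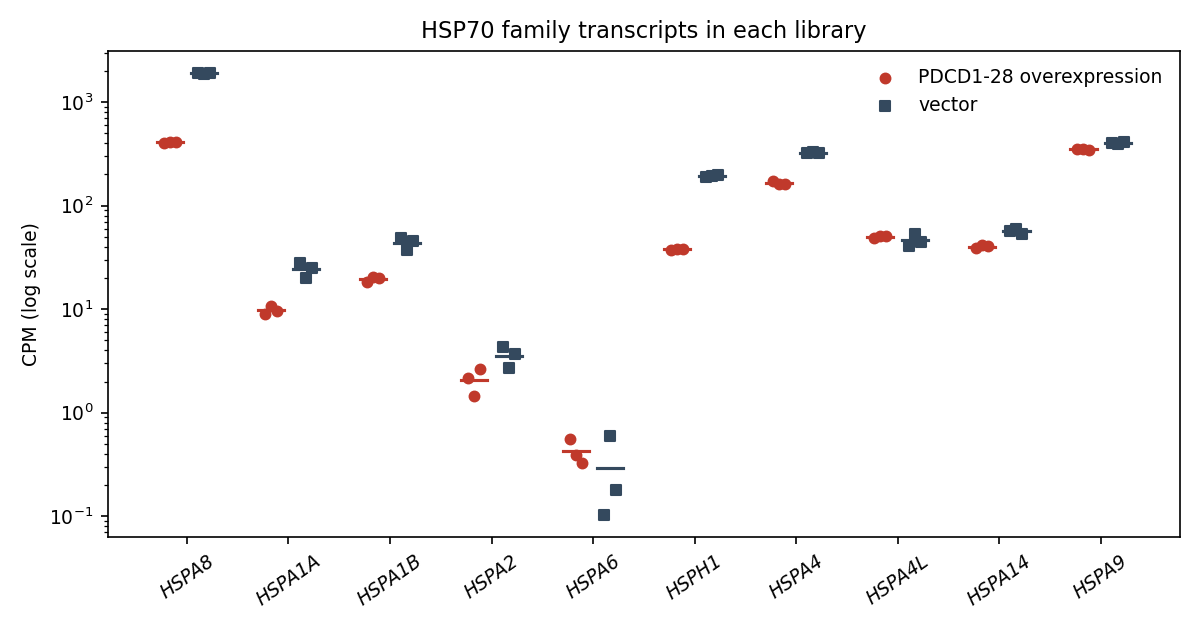
Level of each HSP70 family transcript in each of the 6 libraries, in CPM on a log axis, with circles for PDCD1-28 overexpression, squares for vector and a bar at each group mean (n = 3). HSPA8, HSPH1, HSPA4, HSPA1A and HSPA1B are lower in every overexpression library, with HSPA8 near 409 CPM in overexpression against 1892 CPM in vector, while HSPA4L and HSPA6 overlap.

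HSPA8 (chromosome 11, 123057489 to 123063230, minus strand, GRCh38) was by far the most abundant member in vector. It had 398, 415 and 414 CPM in overexpression against 1898, 1867 and 1911 CPM in vector. The groups were far apart and the libraries of each lay close together. Its mean was 409 ± 9.54 CPM in overexpression against 1892 ± 22.4 CPM in vector (SD, n = 3 each), which is 4.63-fold lower, with a log2 fold change of -2.21 ± 0.04. In bulk RNA, fewer cells that express a gene and less of its RNA per cell cannot be told apart. Processed copies of HSPA8 elsewhere in the genome could take reads from it. The 17 such rows of the table summed to 72 to 125 estimated counts in overexpression and 122 to 180 in vector. HSPA8 itself had 25842 to 30887 estimated counts in overexpression and 110009 to 150666 in vector. Reads that match several places and were left out of the counting would appear in neither, and this was not tested. The small nucleolar RNA gene SNORD14E, which overlaps HSPA8 on the same strand, had 9, 13 and 8 estimated counts in overexpression against 22, 25 and 31 in vector, and its reads cannot be told apart from those of its host.

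The inducible genes HSPA1A (chromosome 6, 31815464 to 31817946) and HSPA1B (chromosome 6, 31827735 to 31830255) stand next to each other on the plus strand. HSPA1A had 9.01, 10.8 and 9.49 CPM in overexpression against 27.8, 19.9 and 24.8 CPM in vector. HSPA1B had 18.2, 20.3 and 19.8 CPM in overexpression against 48.1, 37.5 and 45.2 CPM in vector. In both genes every overexpression library was below every vector library, and vector replicate 2 was the lowest of the vector libraries. The log2 fold change was -1.31 ± 0.14 for HSPA1A and -1.16 ± 0.10 for HSPA1B. Their coding sequences share 1922 of 1926 bases, so how reads were split between them is uncertain. Summed before the fit, they had 29.2 ± 1.94 CPM in overexpression against 67.7 ± 9.44 CPM in vector (SD, n = 3) and a log2 fold change of -1.21 ± 0.11, a sum chosen after seeing the data. The ratio of HSPA1B to HSPA1A was 2.02, 1.89 and 2.08 in overexpression and 1.73, 1.89 and 1.82 in vector. Because the split of reads is uncertain, this ratio cannot show whether both genes differed by similar factors.

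HSPA6 (chromosome 1, 161524540 to 161526910, plus strand), which is strictly heat-inducible in human cells, was barely detected. It had 36, 29 and 21 estimated counts in overexpression against 6, 48 and 12 in vector. The highest and the lowest value both belong to vector libraries, so the groups overlap. A floor of 12 estimated counts per library was set, assumed without proof to be 3 read pairs, and 2 of the 3 vector libraries were at or under it. The fitted log2 fold change was 0.51 ± 0.64, or 1.56 without vector replicate 2, and has no clear direction at this depth. HSPA7, a near copy of it, had 1 estimated count in all 6 libraries together. HSPA1L, a further relative named after its values were seen, had 5 in each overexpression library and 0, 12 and 0 in vector.

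HSPA2 (chromosome 14, 64535905 to 64546173, plus strand) was also low, with 2.16, 1.44 and 2.66 CPM in overexpression against 4.3, 2.7 and 3.65 CPM in vector. The groups did not overlap, but the highest overexpression library lay just under the lowest vector library. The log2 fold change was -0.77 ± 0.28, which did not pass the threshold, and it ran from -0.98 without overexpression replicate 3 to -0.56 without overexpression replicate 2. The gene overlaps an antisense gene, and the strand setting of the counting is not given in the sources used here.

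The 3 genes of the HSP110 group differed from each other. HSPH1 (chromosome 13, 31134974 to 31162388, minus strand), the heat-inducible one, had 37.04, 38.1 and 38.4 CPM in overexpression against 189, 193 and 196 CPM in vector. This is 5.08-fold lower, with a log2 fold change of -2.35 ± 0.05, the lowest of the 10. HSPA4 (chromosome 5, 133051962 to 133106449, plus strand) had 171, 161 and 163 CPM in overexpression against 321, 329 and 323 CPM in vector. The groups did not overlap, and the log2 fold change was -0.98 ± 0.04. HSPA4L (chromosome 4, 127781821 to 127840733, plus strand), a close relative of both, had 48.6, 50.9 and 50.4 CPM in overexpression against 40.9, 52.7 and 44.9 CPM in vector. Its groups overlapped, with vector replicate 2 the highest and vector replicate 1 the lowest library, and its log2 fold change was 0.11 ± 0.09. The overlap rests on vector replicate 2, since the other vector libraries lie below every overexpression library. Without vector replicate 2 the log2 fold change was 0.21, and without vector replicate 1 it was 0.03. The coding sequences of these 3 genes are 68.3% to 70.7% identical over the aligned bases, far from the near-identity of HSPA1A and HSPA1B.

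HSPA14 (chromosome 10, 14838164 to 14871741, plus strand), which joins the J-domain protein DNAJC2 in a complex at the ribosome, had 38.6, 41.5 and 40.7 CPM in overexpression. In vector it had 56.5, 59.2 and 53.2 CPM, all above the overexpression libraries. The log2 fold change was -0.48 ± 0.06. The annotation holds 2 gene records under this symbol and the opposite-strand gene CDNF overlaps it, with 83 to 191 estimated counts in overexpression and 68 to 119 in vector, whereas HSPA14 had 2504 to 3086 in overexpression and 3274 to 4779 in vector.

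HSPA9 (chromosome 5, 138553756 to 138575724, minus strand), the mitochondrial member, differed least among the genes whose groups did not overlap. It had 349.6, 352 and 347 CPM in overexpression against 400.5, 397 and 411 CPM in vector. The libraries of a group differed by little, and the log2 fold change was -0.2 ± 0.04. It was past the threshold, but the difference is small. With upper-quartile scaling in place of TMM it was -0.16.

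**Figure D2:**
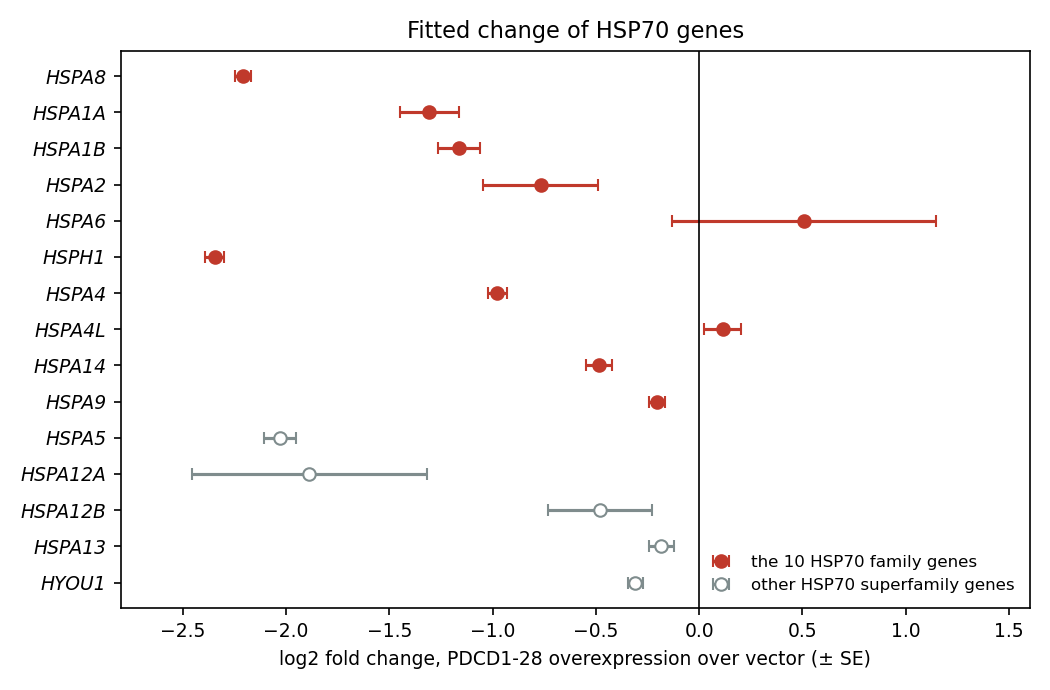
Fitted log2 fold change of PDCD1-28 overexpression over vector, with its SE, for the 10 HSP70 family genes (filled) and for 5 other HSP70 superfamily genes that passed the expression filter (open). HSPH1 (-2.35) and HSPA8 (-2.21) lie farthest to the left, and HSPA4L and HSPA6 lie right of 0.

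The composition of the family within a library does not depend on library scaling, and it also differed between the groups. The family's summed CPM does depend on scaling, and its percent of all estimated counts depends on the denominator. Summed, the family took up 0.112% ± 0.000842 of the overexpression libraries' estimated counts, against 0.288% ± 0.00422 for the vector libraries (SD, n = 3). Without HSPA8 the other 9 summed to 674 ± 2.36 CPM in overexpression and 1094 ± 7.09 CPM in vector. To compare genes, CPM was divided by the length of 1 reference transcript in kilobases. The order of genes and their shares on this scale depend on the transcript chosen, which was longest for HSPA4L, at 10.79 kilobases. On this scale the order in vector, highest first, was HSPA8, HSPA9, HSPA4, HSPH1, HSPA14, HSPA1B, HSPA1A, HSPA4L, HSPA2 and HSPA6. In overexpression HSPA8, HSPA9 and HSPA4 again came first, then HSPA14, then HSPA1B at 7.71 ± 0.439 and HSPH1 at 7.29 ± 0.135 CPM per kilobase, whose library values overlap in part. HSPA4L came next at 4.63 ± 0.115, followed by HSPA1A at 3.93 ± 0.364 CPM per kilobase. HSPH1 thus stood below HSPA14 in overexpression and above it in vector, where HSPH1 had 37.05 ± 0.665 CPM per kilobase. It also stood above HSPA1B in vector, but in overexpression these genes are not separated, and the level of HSPA1B depends on the uncertain split with HSPA1A.

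HSPA8 held 52% ± 0.513 of the family's CPM per kilobase in overexpression and 75.4% ± 0.0918 in vector (SD, n = 3). The share of HSPA9 was 23.2% ± 0.332 in overexpression and 8.36% ± 0.0891 in vector, although its own level was lower in overexpression. HSPA4 held 10.7% ± 0.516 in overexpression and 6.6% ± 0.155 in vector, although its own level was also lower in overexpression. HSPA14 held 6.61% ± 0.155 in overexpression and 2.9% ± 0.187 in vector, again with a lower level of its own in overexpression. HSPA4L held 1.45% ± 0.0157 in overexpression and 0.42% ± 0.0589 in vector. Besides HSPA8, HSPH1 was the gene with a smaller share in overexpression, at 2.28% ± 0.0187, than in vector, at 3.63% ± 0.0689.

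**Figure D3:**
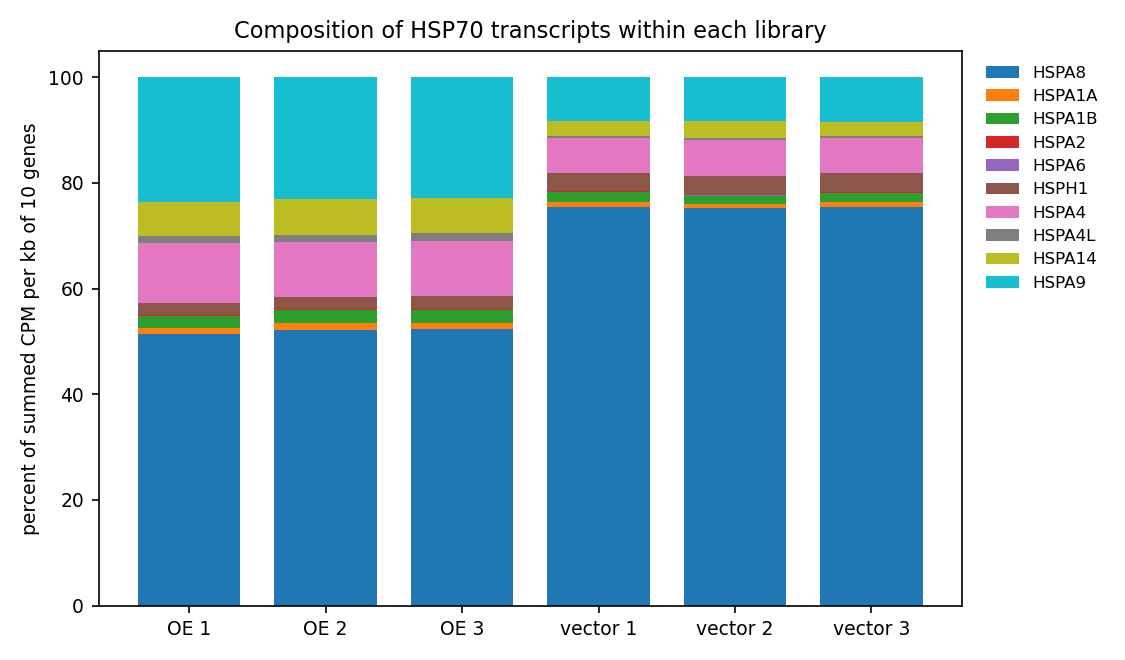
Percent of the summed CPM per kilobase of the 10 genes held by each gene, in the 3 overexpression libraries (OE 1 to 3) and the 3 vector libraries. The HSPA8 segment ends near 52% in each overexpression library and near 75.4% in each vector library, and the HSPA9 segment at the top is wider in overexpression.

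Ratios of estimated counts within a library need no scaling. HSPA8 exceeded HSPA9 by a factor of 1.14, 1.18 and 1.19 in overexpression, against 4.74, 4.7 and 4.65 in vector. The ratio of HSPA8 to HSPA4 was 2.48 ± 0.139 in overexpression and 5.83 ± 0.141 in vector (SD, n = 3). HSPH1 to HSPA4L stood at 0.763, 0.747 and 0.762 in overexpression, against 4.62, 3.65 and 4.36 in vector, so that HSPH1 was the smaller of this pair in overexpression and the larger in vector. The ratio of HSPA8 to HSPH1 differed much less, at 10.8 ± 0.079 in overexpression and 9.84 ± 0.188 in vector, with no overlap between the groups. The ratio of HSPA8 to the sum of HSPA1A and HSPA1B was 14.04 ± 0.645 in overexpression and 28.3 ± 3.86 in vector, so the group difference was smaller for the inducible pair than for HSPA8.

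**Figure D4:**
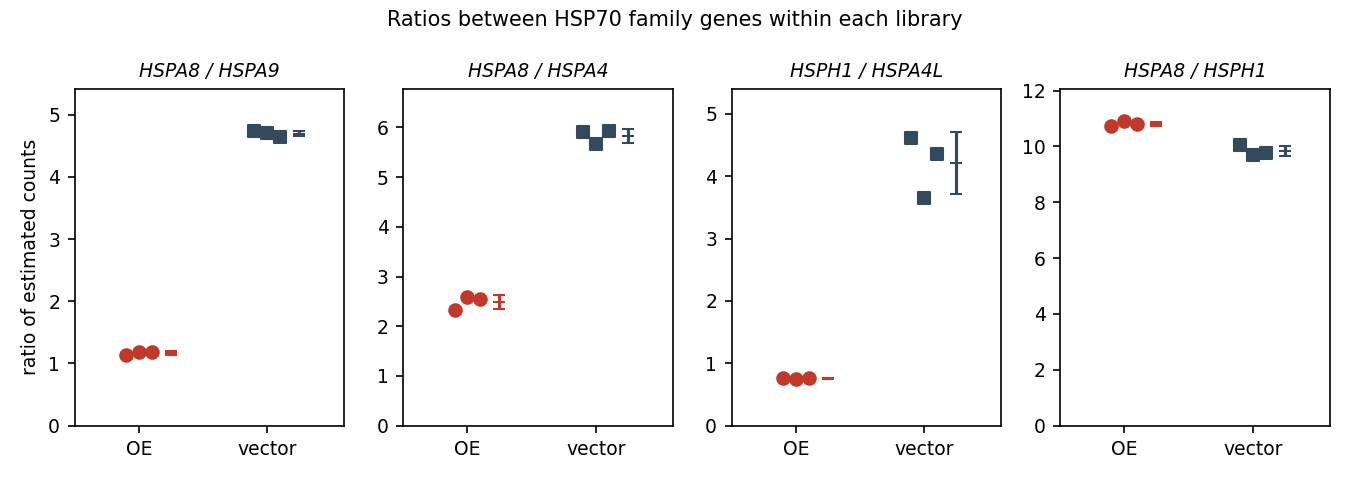
Ratio of estimated counts between named HSP70 family genes in each library, with circles for overexpression (OE), squares for vector and mean ± SD beside them (n = 3); axes start at 0. HSPA8 to HSPA9 is 1.17 on average in overexpression and 4.7 in vector, whereas HSPA8 to HSPH1 lies between 9.7 and 10.9 in all libraries.

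The members lie on 8 chromosomes, and the genes around each were read for comparison. Among the 10 tested protein-coding genes on either side of HSPA8 (20 in all), the median log2 fold change was 0.07, with 5 lower and 8 higher past the edgeR threshold. Around HSPH1 the median was 0.25, with 6 genes lower and 6 higher. Over all genes tested, 23.4% were lower and 22.6% higher past the threshold. Over the surroundings of the 10 members the median ran from -0.18 for HSPA4 to 0.25 for HSPH1.

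Among the 13973 genes that averaged 100 or more estimated counts, those whose centred log2 CPM over the 6 libraries (with 0.5 CPM added before the log) lay nearest to that of HSPA8 by Euclidean distance were PROSER2, ITM2A, HSPH1 and CHRNA9. A further gene among the nearest 5 is not reported here. Distances were 0.135 for PROSER2, 0.141 for ITM2A, 0.155 for HSPH1 and 0.207 for CHRNA9. ITM2A, which encodes a membrane protein of activated T cells and thymocytes, had 80.1 ± 2.71 CPM in overexpression and 355 ± 20.7 CPM in vector (SD, n = 3). PROSER2 had 0.852 ± 0.0343 CPM in overexpression and 5.55 ± 0.261 CPM in vector (SD, n = 3). At that level the added 0.5 CPM brings its difference closer to that of HSPA8, and its fitted log2 fold change was -2.70 against -2.21 for HSPA8, so its place in the order is not to be read. The likeness is a description over 6 libraries in 2 groups.

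Genes that work with HSP70 came from 10 lists of 104 genes, of which 96 passed the expression filter. Of these, 50 fell and 11 rose at an edgeR adjusted p of 0.05, with a median log2 fold change of -0.24, against 23.4% lower, 22.6% higher and a median of 0.02 over all genes tested. The lists were chosen with earlier results of these data known. Their counts and adjusted p-values, here and below, are therefore a description, to be read beside these same shares. Among 24 J-domain cochaperones of the cytosol and nucleus 10 fell and 2 rose. Of the fallen, DNAJA4 and DNAJC8 each lost the call in 3 of 6 fits without 1 library, and DNAJC24 in 4 of 6. DNAJA1, a partner of HSPA8 in folding, had 110 ± 3.51 CPM in overexpression and 399 ± 13.5 CPM in vector (SD, n = 3; edgeR adjusted p = 4.25e-07), and DNAJB1, which serves the inducible HSP70s, had 90.1 ± 1.52 CPM in overexpression and 201 ± 13.4 CPM in vector (adjusted p = 5.07e-06). DNAJA2 fell too (log2 fold change -0.55 ± 0.05), whereas DNAJC17 (0.40 ± 0.09) and DNAJC18 (0.33 ± 0.09) rose, the last of these losing its call in 4 of 6 fits without 1 library.

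Outside the HSP110 group, 3 of 10 nucleotide exchange factors fell and 2 rose, with a median log2 fold change of -0.03. These counts are near the shares over all genes tested (23.4% lower, 22.6% higher), so they set the list apart in neither direction. BAG1 had 25.2 ± 0.504 CPM in overexpression and 65.9 ± 3.39 CPM in vector (SD, n = 3; edgeR adjusted p = 3.02e-06), and BAG3 fell by 0.51 on the log2 scale. GRPEL1 and GRPEL2, exchange factors for HSPA9 in mitochondria, changed in opposite directions, with log2 fold changes of -0.23 ± 0.08 and 0.64 ± 0.06, and GRPEL1 lost its call whenever 1 overexpression library was left out. SIL1 rose (0.36 ± 0.13) but kept its call in only 1 of the 6 fits without 1 library. Of 10 adaptors and modifiers, 6 fell and 1, the deacetylase HDAC6, rose (0.81 ± 0.08). STIP1, which joins HSP70 to HSP90, had 290 ± 6.38 CPM in overexpression and 560 ± 23.9 CPM in vector (SD, n = 3; edgeR adjusted p = 4.87e-06), and CHORDC1 (-1.05 ± 0.07) and UBQLN1 (-0.80 ± 0.06) fell with it.

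All 4 HSP90 genes fell, by smaller factors than HSPA8. HSP90AA1 had 728 ± 30.5 CPM in overexpression and 1522 ± 47.6 CPM in vector, and HSP90AB1 had 1172 ± 23.7 CPM in overexpression and 2169 ± 112 CPM in vector (SD, n = 3). HSP90B1, the form of the endoplasmic reticulum, had a log2 fold change of -1.03 ± 0.09. Of 10 HSP90 cochaperones 5 fell, among them PTGES3 (-1.01 ± 0.04), FKBP4 (-0.98 ± 0.04) and AHSA1 (-0.81 ± 0.06), and 2 rose, PPID (0.36 ± 0.06) and UNC45A (0.17 ± 0.05), which lost its call in 4 of 6 fits without 1 library. Of 10 chaperonin genes 9 fell and 1 was not called. HSPD1, the mitochondrial HSP60, had 479 ± 13 CPM in overexpression and 1238 ± 14.2 CPM in vector (SD, n = 3; edgeR adjusted p = 5.57e-07), and its lid HSPE1 (-1.60 ± 0.07) and the cytosolic ring subunit CCT4 (-1.24 ± 0.05) fell as well.

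Only 4 of 10 small heat shock protein genes passed the filter, and 2 of them rose, HSPB1 (0.79 ± 0.08) and HSPB11 (0.28 ± 0.07), which lost its call in 2 of 6 fits without 1 library. The other two, CRYAB and HSPB6, had 4 to 26 estimated counts per library, near the floor of 12, and give no direction. HSF1, the heat shock factor named above, had 123 ± 0.608 CPM in overexpression and 176 ± 22.1 CPM in vector (SD, n = 3; edgeR adjusted p = 0.00133), and SIRT1 (-0.37 ± 0.06) and HSF2BP (-1.35 ± 0.17) were among the 4 of 7 genes of that list that fell. Of 12 mitochondrial partners of HSPA9, 5 fell, among them DNLZ (-1.70 ± 0.22) and TIMM50 (-0.32 ± 0.05), and 2 rose, DNAJC19 (0.62 ± 0.08) and NFS1 (0.34 ± 0.06). Of 5 tested genes of the HSP70 superfamily outside the 10 members, 4 fell, but HSPA12A and HSPA13 both lost their calls in 4 of 6 fits without 1 library, which leaves 2, HSPA5 and HYOU1. HSPA5, the HSP70 of the endoplasmic reticulum, had 111 ± 4.87 CPM in overexpression and 454 ± 45.1 CPM in vector (SD, n = 3; edgeR adjusted p = 1.80e-06), and HYOU1, its exchange factor, fell by 0.31 on the log2 scale. HSPA12A (-1.89 ± 0.57) lost its call in 5 of those 6 fits, and HSPA13 (-0.18 ± 0.06) in 4 and with upper-quartile scaling.

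**Figure D5:**
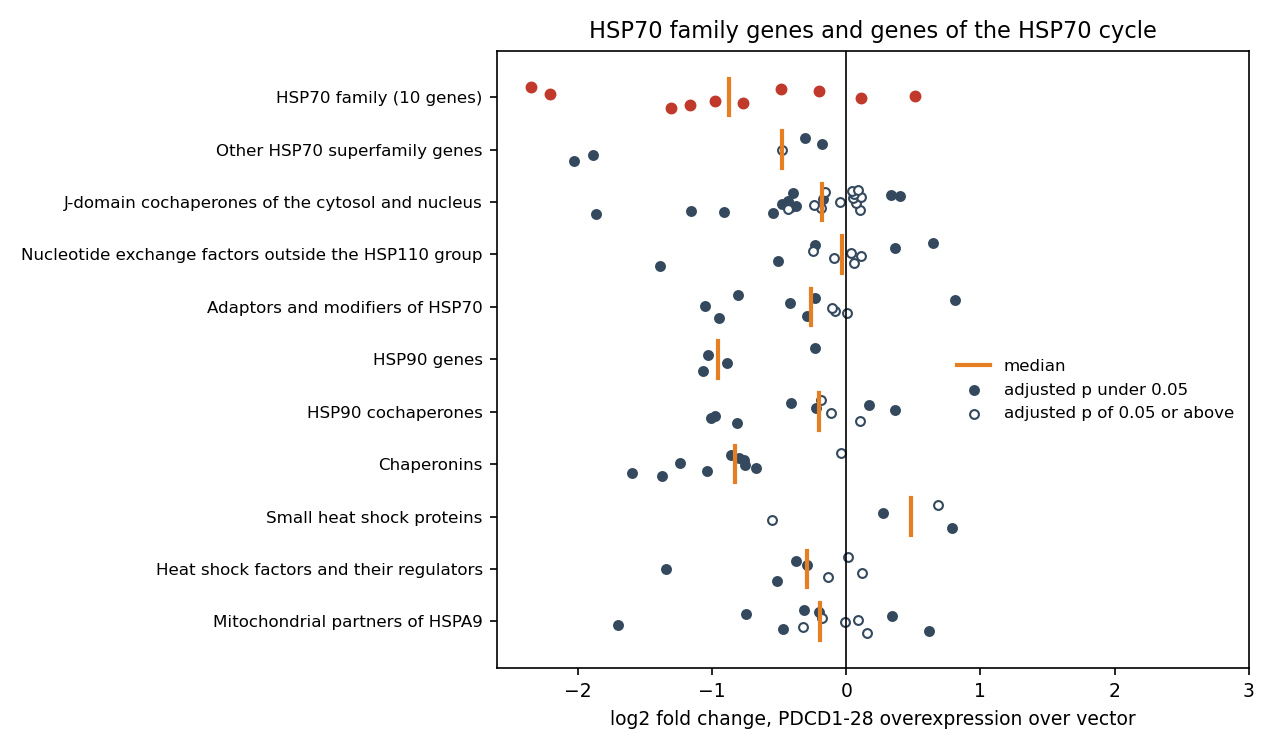
Fitted log2 fold change of PDCD1-28 overexpression over vector for the 10 HSP70 family genes (top row) and each tested gene of the 10 partner lists, 1 list per row; filled dark points have an edgeR adjusted p under 0.05, open points do not, and the upright bar is the row's median. The chaperonin and HSP90 lists have medians of -0.83 and -0.96, and the J-domain list one of -0.18.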

How the data were processed

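RNA sequencing of 6 Jurkat libraries was used. The authors deposited 1 table of estimated counts per gene symbol. Per the submitters' processing notes, fastp, STAR, StringTie and DESeq2 were used with hg38; which step made the table, and the strand setting, are not given in the sources used here. Low values of 4 were more frequent than values of 3, but values of 1 were more frequent than either. In overexpression replicate 1, for example, 2716 genes were at 1, 956 at 3 and 1087 at 4. What 1 unit stands for is therefore not settled. A floor of 12 estimated counts was used, which is 3 read pairs only if each gave 4 units.

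Values were rounded to whole numbers, filtered with filterByExpr and scaled by TMM. They were tested by edgeR 4.0.16 quasi-likelihood with Benjamini-Hochberg adjustment over 21055 genes. The procedure was first run on simulated data in which few genes were changed, with as many raised as lowered. That setting differs from these data, so it does not test the scaling where many genes differ. DESeq2 1.42.0, other scalings and filters, a replicate block and leaving out each library were alternatives. Positions and lengths came from GENCODE 29, promoters from RefSeq.

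The members and gene lists were chosen with earlier results of these data known. Named genes were the members, PDCD1, up to 3 risen and 3 fallen genes per list with the smallest adjusted p (with none, up to 2 with the highest mean), and the 5 nearest to HSPA8. Not every gene so named is reported here.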

Additional observations from a re-analysis of the deposited data

How the results depend on the processing

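The 7 genes of the family past the threshold had a negative log2 fold change under each alternative run, and the median over the family ran from -0.98 to -0.76 when 1 library was left out. Genes past the threshold numbered 7916 to 10868 in those fits, 8684 without a filter and 10002 with DESeq2, against 9705. HSPA6 had 1.56 without vector replicate 2, its highest vector library at 48 estimated counts. It had 0.12 without vector replicate 1, its lowest at 6. Why these libraries differ was not tested. Upper-quartile scaling gave -2.16 for HSPA8, -2.30 for HSPH1 and -0.16 for HSPA9. With the TMM-scaled library size as denominator, the family's share of counts was lower in overexpression by a difference of -0.19 percentage points, against -0.176, because the denominator differs. Requiring the longer heat shock element left 2 genes with a match, in place of 5. The labels do not say whether same-numbered libraries pair. Their deviations from the group means correlated at 0.007, 0.011 and 0.012, each the highest for its library, and all other pairs were slightly negative (-0.002 to -0.011). Values this small cannot settle whether the libraries pair. With the replicate block, 8690 genes and 56 partner genes, against 61, were past the threshold, and the family median was -0.88. The block ended the calls of HSPA12A, HSPA13, DNAJC18, DNAJC24, SIL1 and UNC45A, and DESeq2 that of UNC45A. HSPA6, HSPA2 and the calls of HSPA12A and SIL1 are limited by low counts or spread.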
